A study of Mus musculus with 2 samples.

Results

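The 46 genes described here encode proteins that join the sides of a synapse or that hold its receiving side together, namely adhesion receptors of both sides, the secreted cerebellins, postsynaptic scaffolds and the kinase CaMKII. They were chosen by symbol and not by a measured value, and all 46 were found among the 43346 Ensembl genes of each table through their gene IDs. The study measured forebrain RNA of mouse embryos at day 14.5 of development in 2 libraries that form 1 group. Both libraries came from embryos of strain B6NCrl, which carried no allele and received no treatment that the labels name. The labels describe each sample as the forebrain of 1 embryo, collected on different days, but also give the sex as pooled or mixed and the same donor identifier for both. The samples are called replicate 1 and replicate 2, after their biological replicate numbers. With 1 group and 2 libraries no test between conditions is possible, and an exact test could not go below p = 0.5. Errors are therefore standard deviations over the 2 libraries (SD, n = 2).

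Synapses are built around trans-synaptic bridges. Neurexins and receptor protein tyrosine phosphatases of the LAR type sit on the axon side and bind partners on the dendrite side, such as neuroligins, LRRTMs, NGLs and Slitrks, directly or through secreted cerebellins. On the inner face of excitatory synapses a layered lattice of PSD-95 type proteins, SAPAPs, Shanks and Homers anchors receptors and signalling enzymes, while gephyrin plays that part at inhibitory synapses. In the embryonic forebrain most neurons are newly born and synapses are few, and many of these proteins are also known from axon growth and cell contact before synapses form.

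The summed expected counts, the estimated and not always whole read numbers of the files, were 35310017 in replicate 1 and 29250404 in replicate 2. Levels are given in TPM, a share of all transcripts that takes transcript length into account, so that genes can be set side by side. The tissue label was checked against marker genes. The 6 forebrain markers used (Emx1, Emx2, Lhx2, Dlx1, Dlx2 and Six3) each reached 1 TPM in each library, with sums of 324 TPM in replicate 1 and 339 TPM in replicate 2. Of 6 markers of the hindbrain and spinal cord, 3 were at 0 in both libraries, and the 6 summed to 0.070 TPM in replicate 1 and 0.17 TPM in replicate 2.

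Almost the whole set was present at this early stage. Both libraries reached 1 TPM for 45 of the 46 genes (97.8%), against 59.6% of the 21461 nuclear protein-coding genes. Both libraries reached 10 TPM for 30 genes (65.2%), against 38.4% of the nuclear protein-coding genes. The median of the 46 genes was 14.3 ± 2.54 TPM, where the SD is that of the medians of the 2 libraries, and the median of all nuclear protein-coding genes was 4.25 ± 0.509 TPM. The exception was Il1rapl1, a postsynaptic partner of Ptprd linked to intellectual disability in humans, with 0.75 TPM in replicate 1 and 2.00 TPM in replicate 2.

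The levels were uneven. In mean TPM, 12 genes lay under 10, 27 between 10 and 50, and 7 at 50 or more. The 4 most abundant genes, Dlgap4, Ptprs, Cadm1 and Nptn, held 51.3% of the summed TPM of the set in replicate 1 and 48.1% in replicate 2. By role, the median level was highest for the immunoglobulin adhesion proteins, at 56.6 ± 11.4 TPM over 5 genes, and for the presynaptic receptors, at 43.7 ± 13.3 TPM over 5 genes. These medians add coding and non-coding transcripts. Of the presynaptic receptors, Nrxn2, Nrxn3 and Ptprd had only 44.6%, 46.2% and 46.8% of their TPM on protein-coding transcripts. Nrxn3, whose mean is that median, had 16.4 TPM on such transcripts in replicate 1 and 22.6 TPM in replicate 2. Over protein-coding transcripts alone the presynaptic receptors did not keep their second place. Nrxn2, Nrxn3 and Ptprd, the majority of the 5, then lay under Gphn in both libraries. Gphn, the only gene of the inhibitory scaffold role, had 26.3 TPM in replicate 1 and 29.5 TPM in replicate 2 on such transcripts. The full order of the roles on this basis was not tested. The 16 postsynaptic receptors had a median of 12.9 ± 2.85 TPM and the 14 excitatory scaffolds one of 12.7 ± 2.78 TPM.

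**Figure D1:**
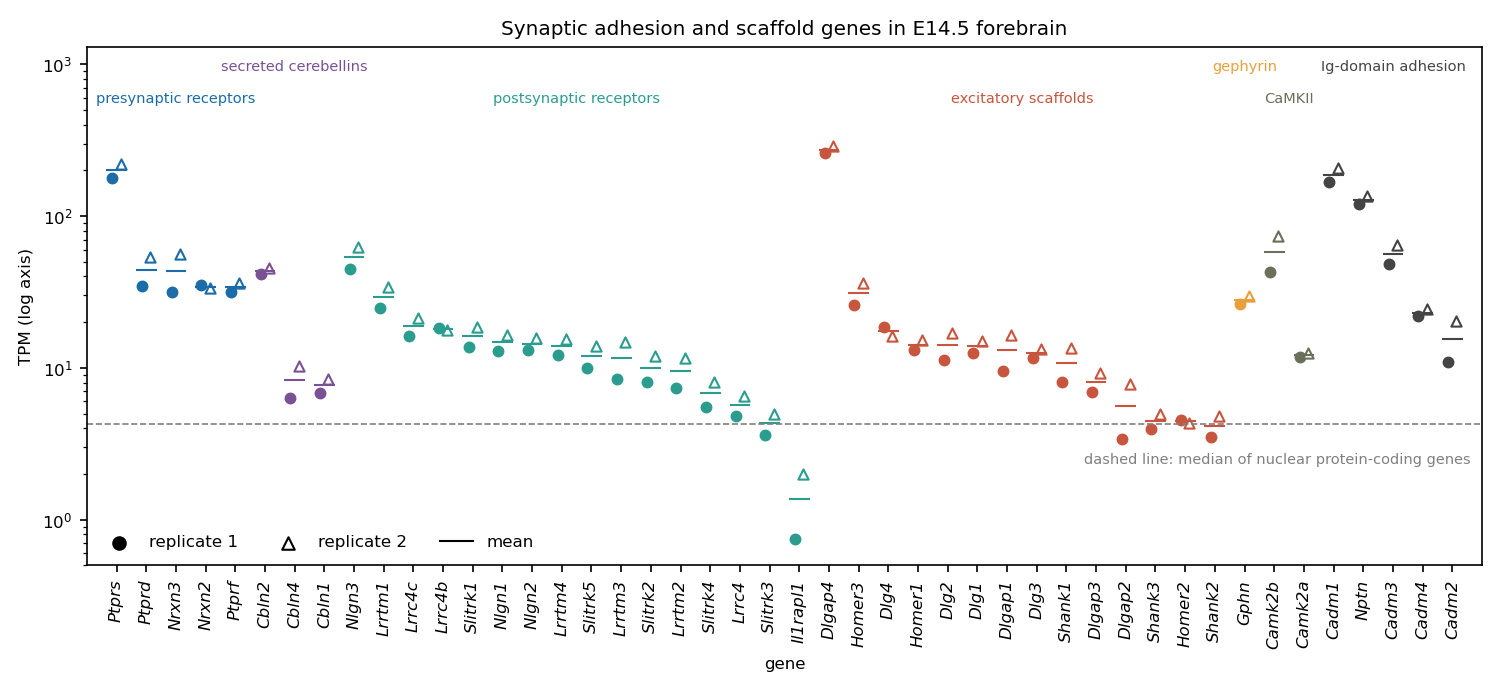
TPM of the 46 genes (log axis) by role, with filled circles for replicate 1, open triangles for replicate 2 and a bar for their mean; the dashed line is the median of nuclear protein-coding genes, 4.25 TPM. Dlgap4, Ptprs, Cadm1 and Nptn stand above 100 TPM in both libraries, and Il1rapl1 is the lowest gene.

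Within each of 13 families of related genes, members were ordered by mean TPM and each was set against the next. A pair was called separated when the TPM intervals that the authors deposited for the 2 genes did not overlap in either library and the same gene was higher in each. The level of confidence of these intervals is not given in the sources used here. Of 30 neighbouring pairs, 18 were separated.

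Among the presynaptic receptors, Ptprs stood first. This gene (ENSMUSG00000013236.12, chr17:56412426-56476483, minus strand, GRCm38) encodes PTP-sigma, a LAR-type phosphatase that binds Slitrks, NGL-3 and proteoglycans. It had 178 TPM in replicate 1 and 221 TPM in replicate 2. Ptprd, which binds Il1rapl1 and Slitrks, had 34.7 TPM in replicate 1 and 53.5 TPM in replicate 2. Ptprf, the founding member LAR, had 31.6 TPM in replicate 1 and 36.0 TPM in replicate 2. The log2 ratio of Ptprs over Ptprd was 2.20 ± 0.22 (SD, n = 2), and the pair was separated. The next step, Ptprd over Ptprf, was small at 0.35 ± 0.31, and it turned round when only protein-coding transcripts were summed (−0.69) or when counts were not divided by length (−0.48).

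The neurexins are the presynaptic receptors of neuroligins, LRRTMs and cerebellins. Nrxn3 had 31.5 TPM in replicate 1 and 55.9 TPM in replicate 2. Nrxn2 had 35.2 TPM in replicate 1 and 33.4 TPM in replicate 2. Their order thus differed between the libraries, with a log2 ratio of Nrxn3 over Nrxn2 of 0.29 ± 0.64, and the pair was not separated. Over protein-coding transcripts alone Nrxn3 was higher in both libraries, but the intervals were apart in replicate 2 only. Nrxn3 then had 16.4 TPM in replicate 1 and 22.6 TPM in replicate 2, beside 15.2 and 15.4 TPM for Nrxn2. When counts were not divided by length, Nrxn3 was higher and apart in both libraries, at a mean log2 ratio of 1.19. Neurexin genes give rise to long alpha forms and to shorter forms from an internal start. Coding transcripts with at least 50% of the longest annotated coding length held 66.1% of the coding TPM of Nrxn3 in replicate 1 and 66.2% in replicate 2. For Nrxn2 the same share was 23.7% in replicate 1 and 29.1% in replicate 2, and the most abundant coding model has a coding length of 1980 nt beside 5130 nt for the longest.

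The secreted cerebellins bridge presynaptic neurexins to postsynaptic receptors and are best known from the cerebellum. Cbln2 had 41.4 TPM in replicate 1 and 45.5 TPM in replicate 2. Cbln4 had 6.30 TPM in replicate 1 and 10.3 TPM in replicate 2, and Cbln1 had 6.81 TPM in replicate 1 and 8.50 TPM in replicate 2. Cbln2 was separated from Cbln4, with a log2 ratio of 2.43 ± 0.40, and it made up 75.9% of the summed TPM of these 3 genes in replicate 1 and 70.8% in replicate 2. Cbln4 and Cbln1 were not separated, and their order differed between the libraries.

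Neuroligins are the postsynaptic partners of neurexins. Nlgn3 (ENSMUSG00000031302.12, chrX:101299168-101325963, plus strand, GRCm38), found at both excitatory and inhibitory synapses, had 44.7 TPM in replicate 1 and 62.6 TPM in replicate 2. Nlgn1, the neuroligin of excitatory synapses, had 13.0 TPM in replicate 1 and 16.4 TPM in replicate 2. Nlgn2, that of inhibitory synapses, had 13.0 TPM in replicate 1 and 15.7 TPM in replicate 2. Nlgn3 over Nlgn1 was separated at a log2 ratio of 1.86 ± 0.10, whereas Nlgn1 over Nlgn2 was not, at 0.03 ± 0.05.

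Nlgn1 RNA is spliced at sites that set which neurexin forms it binds. The optional coding segments at both sites are shown with 18 bases of flanking coding sequence from a transcript that holds both, in the direction of transcription, and capitals mark the segment that the other transcripts lack. The 60-base segment lies at chr3:25920178-25920237 and the 27-base segment at chr3:25439865-25439891, both on the minus strand of GRCm38 and within coding exons.
Nlgn1 60-base segment: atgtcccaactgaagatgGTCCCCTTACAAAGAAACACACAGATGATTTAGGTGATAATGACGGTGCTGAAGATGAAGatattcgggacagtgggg
Nlgn1 27-base segment: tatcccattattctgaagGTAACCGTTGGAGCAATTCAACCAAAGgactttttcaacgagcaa
Transcripts with the segments held 55.1% of the coding TPM of Nlgn1 in replicate 1 and 51.6% in replicate 2. In the annotation the segments occur only together, in 2 of 4 coding transcripts, so their separate use cannot be told apart in these tables.

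The LRRTMs, NGLs and Slitrks are postsynaptic receptors with leucine-rich repeats. Among the LRRTMs, which bind neurexins or proteoglycans, Lrrtm1 had 24.6 TPM in replicate 1 and 34.3 TPM in replicate 2. It was separated from Lrrtm4, with 12.1 TPM in replicate 1 and 15.5 TPM in replicate 2, at a log2 ratio of 1.08 ± 0.09. Lrrtm4, Lrrtm3 and Lrrtm2 had means of 13.8, 11.6 and 9.49 TPM, and neither Lrrtm4 over Lrrtm3 nor Lrrtm3 over Lrrtm2 was separated. Over protein-coding transcripts alone, Lrrtm4 over Lrrtm3 was apart in both libraries, at a mean log2 ratio of 0.74. Lrrtm3 over Lrrtm2 turned to −0.52, apart in both libraries, when counts were not divided by length.

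NGL-1, NGL-2 and NGL-3 are encoded by Lrrc4c, Lrrc4 and Lrrc4b and bind netrin-G1, netrin-G2 and the LAR-type phosphatases. Lrrc4c had 16.2 TPM in replicate 1 and 21.3 TPM in replicate 2, and Lrrc4b had 18.4 TPM in replicate 1 and 17.7 TPM in replicate 2. Their order differed between the libraries, so the pair was not separated. Lrrc4 was lower, at 4.82 TPM in replicate 1 and 6.48 TPM in replicate 2, and Lrrc4b over Lrrc4 was separated at a log2 ratio of 1.69 ± 0.34.

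In the 5 Slitrks of the set, ligands of PTP-sigma and PTP-delta, all 4 neighbouring pairs were separated. Slitrk1 had 13.8 TPM in replicate 1 and 18.6 TPM in replicate 2. Slitrk5, Slitrk2 and Slitrk4 followed with means of 12.0 ± 2.72, 10.0 ± 2.71 and 6.78 ± 1.80 TPM. Slitrk3, whose product acts at inhibitory synapses, was the lowest of these 5, with 3.63 TPM in replicate 1 and 4.98 TPM in replicate 2. The log2 ratio of Slitrk1 over Slitrk3 was 1.91 ± 0.02, so the range within these 5 was nearly equal in the 2 embryos although each gene was higher in replicate 2. Slitrk5 over Slitrk2, at 0.26 ± 0.06, turned round when counts were not divided by length.

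Il1rapl1 (ENSMUSG00000052372.6, chrX:86740870-88115645, minus strand, GRCm38) rested on 133 expected counts in replicate 1 and 148 in replicate 2. Its lower TPM in replicate 1 and higher TPM in replicate 2 lay in a single short model, with a coding length of 1149 nt, which had 0.13 TPM in replicate 1 and 1.34 TPM in replicate 2. A longer model of 2088 nt had 0.62 TPM in replicate 1 and 0.66 TPM in replicate 2.

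In the PSD-95 family of scaffolds no neighbours were separated. Dlg4, which encodes PSD-95, the central scaffold of mature excitatory synapses, had 18.7 TPM in replicate 1 and 16.2 TPM in replicate 2. Dlg2 (PSD-93) had 11.3 TPM in replicate 1 and 17.0 TPM in replicate 2. Dlg1 (SAP97) had 12.5 TPM in replicate 1 and 15.1 TPM in replicate 2, and Dlg3 (SAP102) had 11.7 TPM in replicate 1 and 13.2 TPM in replicate 2. The log2 ratio of the highest over the lowest, Dlg4 over Dlg3, was 0.49 ± 0.27. Over protein-coding transcripts alone the family was less even: Dlg4 was then apart from Dlg2 and Dlg1 from Dlg3 in both libraries, at mean log2 ratios of 1.15 and 1.02.

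The SAPAP proteins link PSD-95 to Shanks, and their genes had the widest range of the 13 families. Dlgap4 (ENSMUSG00000061689.11, chr2:156613705-156764363, plus strand, GRCm38) was the most abundant of the 46 genes, with 259 TPM in replicate 1 and 288 TPM in replicate 2. Dlgap1 had 9.5 TPM in replicate 1 and 16.6 TPM in replicate 2. Dlgap3 had 6.98 TPM in replicate 1 and 9.22 TPM in replicate 2. Dlgap2 (chr8:14095865-14847680, plus strand, GRCm38) had 3.42 TPM in replicate 1 and 7.85 TPM in replicate 2. Dlgap4 over Dlgap1 was separated at a log2 ratio of 4.45 ± 0.46. Dlgap1 over Dlgap3 was separated too, at 0.64 ± 0.28, but over protein-coding transcripts alone the ratio was −0.12 and the intervals overlapped.

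The level of Dlgap4 lay on short coding models. A model with a coding length of 855 nt, beside 2976 nt for the longest, had 149 TPM in replicate 1 and 156 TPM in replicate 2. Another, with 204 nt, had 35.2 TPM in replicate 1 and 43.4 TPM in replicate 2. Transcripts with at least 50% of the longest coding length had 5.16 TPM in replicate 1 and 6.42 TPM in replicate 2, which was 2.15% of the coding TPM in replicate 1 and 2.43% in replicate 2. By that measure, chosen after the values were seen, Dlgap4 ranked 37 of the 46 genes and lay under Dlgap1, with 5.89 TPM in replicate 1 and 9.19 TPM in replicate 2.

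Shank proteins form the deep layer of the postsynaptic lattice. Shank1 had 8.12 TPM in replicate 1 and 13.5 TPM in replicate 2. Shank3 had 3.95 TPM in replicate 1 and 4.95 TPM in replicate 2, and Shank2 had 3.49 TPM in replicate 1 and 4.82 TPM in replicate 2. Shank1 over Shank3 was separated at a log2 ratio of 1.24 ± 0.29, and Shank3 over Shank2 was not, at 0.11 ± 0.10. The second ratio turned to −1.465, with the genes apart in both libraries, when counts were not divided by length. A model with a coding length of 407 nt, held 68.9% of the Shank3 TPM in replicate 1, on 38.7 expected counts, and 63.2% in replicate 2, on 34.2. A long model of 5190 nt had 1.09 TPM in replicate 1, on 176 expected counts, and 1.68 TPM in replicate 2, on 208.

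Homer proteins tie Shanks to group I metabotropic glutamate receptors. Homer3 had 26 TPM in replicate 1 and 36.2 TPM in replicate 2, Homer1 had 13.1 TPM in replicate 1 and 15.3 TPM in replicate 2, and Homer2 had 4.52 TPM in replicate 1 and 4.36 TPM in replicate 2. Both steps were separated, with log2 ratios of 1.12 ± 0.18 for Homer3 over Homer1 and 1.67 ± 0.19 for Homer1 over Homer2. The second turned to −0.12 when counts were not divided by length. Homer3 shares 25.4% of its exonic bases with Ddx49 on the opposite strand, a gene at 43.0 TPM in replicate 1 and 44.7 TPM in replicate 2. Reads in that overlap may not be told apart, since the use of strand in counting is not given in the sources used here.

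Homer1 makes long forms with a coiled coil, through which they join each other, and the short form Homer1a, known as an activity-induced transcript that lacks it. The coding ends are shown where the forms part: 30 shared bases stand in lower case, and capitals mark the bases of the main long transcript from chr13:93387524-93387583 and those of the short transcript from chr13:93356080-93356110, both on the plus strand of GRCm38.
Homer1 long: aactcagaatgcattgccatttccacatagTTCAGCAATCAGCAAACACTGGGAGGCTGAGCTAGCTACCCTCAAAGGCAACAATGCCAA
Homer1 short: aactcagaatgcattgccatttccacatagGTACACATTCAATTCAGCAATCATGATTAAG
Long forms had 10.9 TPM in replicate 1 and 12.0 TPM in replicate 2. Short forms were 3 transcripts with coding lengths of 558 to 699 nt, the short transcript shown among them. Together they had 2.09 TPM in replicate 1 and 2.92 TPM in replicate 2. That was 15.9% of the Homer1 TPM in replicate 1 and 19.2% in replicate 2, and it is not the share of Homer1a alone. The remaining 2 transcripts had 0.09 TPM in replicate 1 and 0.38 TPM in replicate 2. The forms were grouped by their stop codon after the values were seen, since a split at 50% of the longest coding length placed the short transcript shown, with 558 nt, among the long ones.

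Gphn encodes gephyrin, which anchors glycine and GABA-A receptors. It had 26.3 TPM in replicate 1 and 29.5 TPM in replicate 2, all on coding transcripts. That level was above the medians of the excitatory scaffolds, which were 10.4 TPM in replicate 1 and 14.3 TPM in replicate 2. Among these scaffolds, Dlgap4 was above Gphn in both libraries and Homer3 in replicate 2 only, at 36.2 TPM.

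CaMKII is the calcium-dependent kinase of the postsynaptic density. Camk2b, its beta subunit, which also binds actin, had 42.5 TPM in replicate 1 and 73.8 TPM in replicate 2. Camk2a, the alpha subunit that predominates in the adult forebrain, had 11.8 TPM in replicate 1 and 12.5 TPM in replicate 2. Camk2b over Camk2a was separated at a log2 ratio of 2.21 ± 0.50. Camk2b RNA varies in the linker between the kinase and association domains. The optional segments are shown with 18 bases on each side, and capitals mark the segment. The 45-base segment lies at chr11:5981070-5981114 and the 75-base segment at chr11:5987057-5987131, both on the minus strand of GRCm38.
Camk2b 45-base segment: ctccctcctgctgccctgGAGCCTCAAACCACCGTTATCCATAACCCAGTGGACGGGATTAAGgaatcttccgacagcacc
Camk2b 75-base segment: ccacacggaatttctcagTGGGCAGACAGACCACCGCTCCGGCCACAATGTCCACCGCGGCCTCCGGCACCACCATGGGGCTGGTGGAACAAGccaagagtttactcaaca
Transcripts with the 45-base segment held 80.8% of the coding TPM in replicate 1 and 75.2% in replicate 2. The 75-base segment was on 49.1% of the coding TPM in replicate 1 and 43.7% in replicate 2.

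The immunoglobulin adhesion proteins were among the most abundant of the set. Cadm1, which encodes SynCAM 1, a homophilic and heterophilic adhesion protein of synapses and axons, had 167 TPM in replicate 1 and 205.9 TPM in replicate 2. Cadm3 had 48.6 TPM in replicate 1 and 64.7 TPM in replicate 2. Cadm4 had 21.9 TPM in replicate 1 and 24.3 TPM in replicate 2, and Cadm2 had 10.9 TPM in replicate 1 and 20.3 TPM in replicate 2. Cadm1 over Cadm3 and Cadm3 over Cadm4 were separated at log2 ratios of 1.73 ± 0.08 and 1.28 ± 0.18. Cadm4 over Cadm2 was not separated, at 0.64 ± 0.53, and it turned to −0.78, apart in both libraries, when counts were not divided by length.

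Nptn encodes neuroplastin, an immunoglobulin protein and a subunit of plasma membrane calcium pumps. It had 120.0 TPM in replicate 1 and 135 TPM in replicate 2. Neuroplastin has a widely expressed form and a brain form with an additional immunoglobulin domain. The coding segment of 348 nt that sets the longer form apart lies at chr9:58618663-58619010 on the plus strand of GRCm38. Of the TPM of coding transcripts counted as with or without it, 4.76% had the segment in replicate 1 and 5.16% in replicate 2. A 12-base segment in the part that codes for the cytoplasmic tail, at chr9:58650497-58650508 on the plus strand, is shown in capitals with 18 bases on each side.
Nptn 12-base segment: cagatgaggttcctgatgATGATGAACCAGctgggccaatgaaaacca
It was on 72.3% of the coding TPM in replicate 1 and 62.4% in replicate 2.

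**Figure D2:**
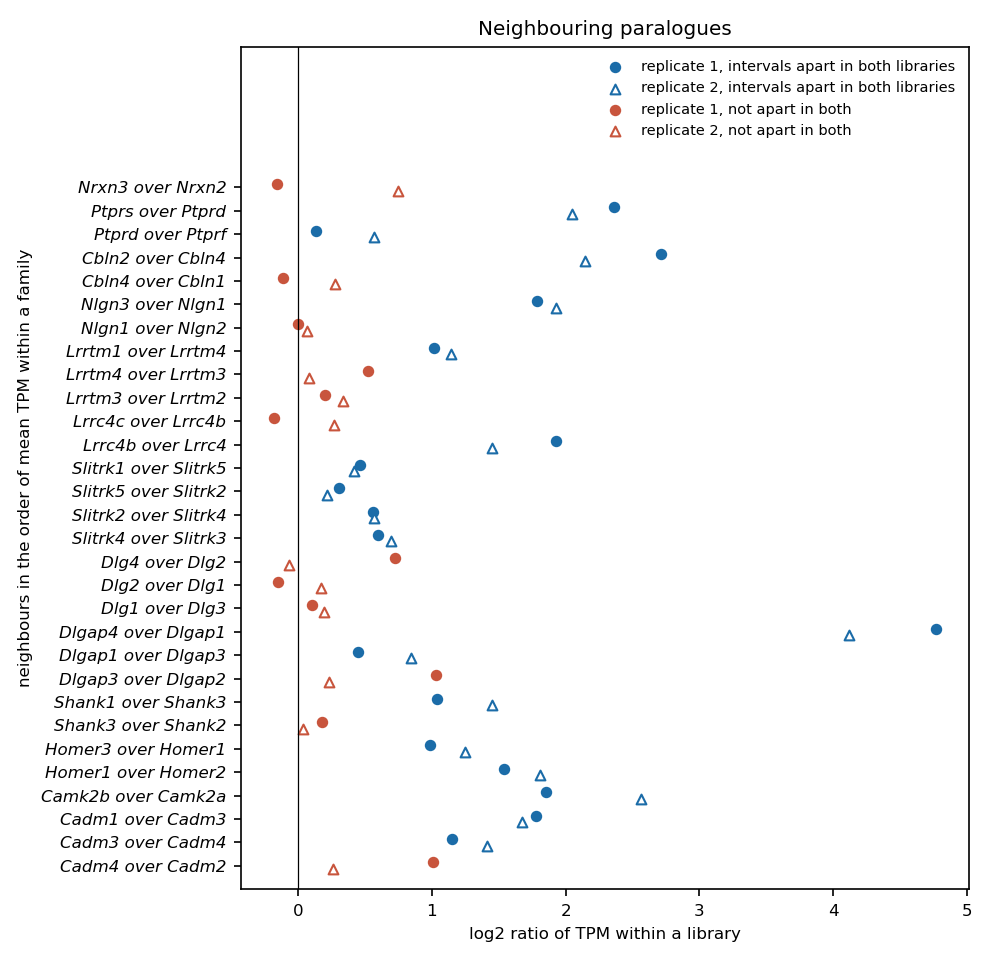
Log2 ratio of TPM for each of the 30 neighbouring pairs within a family, the gene with the higher mean over the next, in replicate 1 (filled circles) and replicate 2 (open triangles); blue pairs were separated. Dlgap4 over Dlgap1 is the widest step, at 4.77 in replicate 1 and 4.12 in replicate 2, and the 3 Dlg pairs lie between −0.15 and 0.73.

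A gene's TPM adds all of its transcript models, coding or not. Over the 46 genes the median share on protein-coding transcripts was 99.4% (mean of the 2 libraries), and 32 genes had 90% or more. Among the 45 genes at 1 TPM or more in both libraries, 68.9% had a share of 90% or more, against 70.1% of the 12795 nuclear protein-coding genes at that level. At the other end, 11.1% of them had a share under 50%, against 7.37% of those genes.

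The genes with a share under 50% were Dlgap2 (25.1% ± 5.79), Dlg3 (33.8% ± 8.33), Nrxn2 (44.6% ± 2.14), Nrxn3 (46.2% ± 8.20) and Ptprd (46.8% ± 7.28). The non-coding part was mostly of the type processed transcript, meaning a spliced model with no open reading frame assigned, for Dlg3, Nrxn2, Dlgap2 and Ptprd. For Nrxn3 it was mostly of the type retained intron, with 1 such model at 10.8 TPM in replicate 1 and 19.2 TPM in replicate 2. In Dlg3, 1 processed transcript of 3316 nt held 69.9% of the TPM in replicate 1, on 599 of 968 expected counts, and 47.1% in replicate 2, on 353.5 of 830. In Nrxn2 and Dlgap2 short non-coding models, of 576 and 400 nt, carried a large share of TPM on few reads: 1 processed transcript held 52.2% of the Nrxn2 TPM in replicate 1 on 200.6 of 1581 expected counts, and 43.9% in replicate 2 on 123 of 1380. 1 processed transcript likewise held 33.5% of the Dlgap2 TPM in replicate 1, on 7.91 expected counts, and 31.0% in replicate 2, on 12.9.

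**Figure D3:**
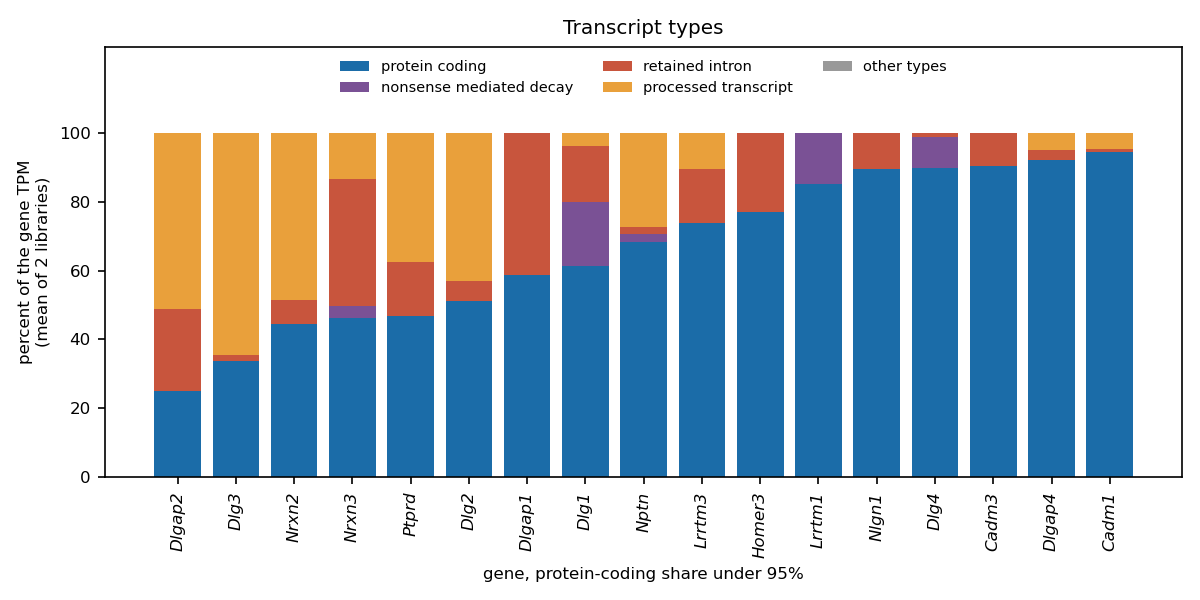
Percent of a gene's TPM (mean of the 2 libraries) on transcripts of each annotated type, as stacked bars, for the 17 genes with a protein-coding share under 95%. Dlgap2 has the lowest coding share, at 25.1%, and retained introns make up the largest non-coding part in Nrxn3, Dlgap1, Homer3, Lrrtm3, Nlgn1 and Cadm3.

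The short coding models found for Dlgap4 were an exception within the set. In 39 of the 46 genes, transcripts with at least 50% of the longest coding length held 90% or more of the coding TPM. Among the 45 detected genes that was 84.4%, against 87.9% of nuclear protein-coding genes with coding TPM in both libraries. The share was under 50% for Dlgap4 (2.29% ± 0.197), Nrxn2 (26.4% ± 3.84) and Shank3 (31.7% ± 4.52), which is 6.67% of the 45 detected genes, against 3.19% of those nuclear protein-coding genes. Measured in expected counts in place of TPM, it was 6.99% ± 0.718 for Dlgap4, 40.9% ± 4.15 for Nrxn2 and 83.9% ± 2.77 for Shank3, so the low share of Shank3 rested on few reads of a short model.

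Other optional coding segments, chosen after the transcript shares were seen, are drawn in the plot of segment use. In Ptprs, 1218 nt in 4 segments set a long receptor apart from the short one, and the long model held 9.92% of the coding TPM in replicate 1 and 11.8% in replicate 2. In Cadm1, segments of 84, 33 and 54 nt were on 42.7%, 72.9% and 9.06% of the coding TPM in replicate 1 and on 43.0%, 75.6% and 12.2% in replicate 2. In Cadm3, a segment of 102 nt was on 81.5% in replicate 1 and 83.8% in replicate 2. The largest difference between the libraries among all 14 segments was that of the 12-base segment of Nptn.

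**Figure D4:**
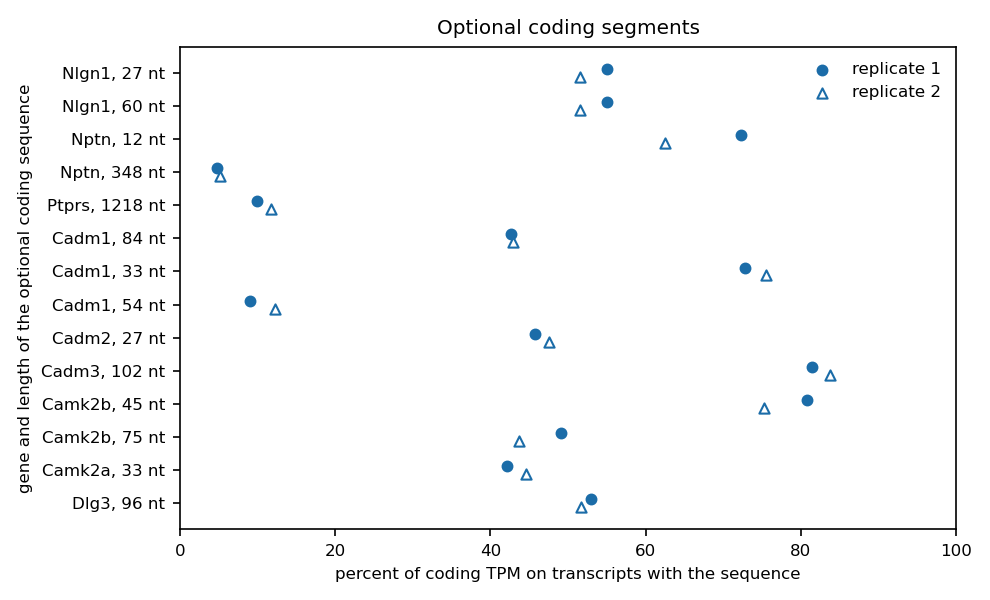
Percent of coding TPM on transcripts with an optional coding sequence of the length given (nt), in replicate 1 (filled circles) and replicate 2 (open triangles). The percent is over coding transcripts counted as with or without the sequence. For Camk2a these left out part of the coding TPM: in replicate 1 they had 3.27 and 4.50 TPM, of 11.8 coding TPM. The libraries lie close together for most segments, and the Nptn 12-nt segment is at 72.3% in replicate 1 and 62.4% in replicate 2.

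Between the 2 embryos, the set was shifted to one side. Of the 46 genes, 42 had the lower TPM in replicate 1 and the higher in replicate 2, and the 4 others were Dlg4, Nrxn2, Lrrc4b and Homer2. The median log2 ratio, replicate 1 over replicate 2, was −0.41 for the 46 genes and −0.14 for all 11010 genes at a mean of 5 TPM or above, of which the 10th and 90th percentiles were −0.49 and 0.18. Of the 41 genes of the set at that level, 38 (92.7%) were higher in replicate 2, against 72.4% of all genes there. Scaled by TMM or by DESeq2 size factors, which bring the median of all genes to 0.03, the median of the 46 genes was −0.23, and 36 of them were higher in replicate 2 (78.3%). Of the 41 at that level it was 32, against 45% of all genes. Under these scalings Nrxn2 moved to −0.01, and Ptprf, Cbln1, Cbln2, Dlg1, Dlg3, Gphn and Cadm4 turned to the other side, by small ratios.

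The size of the shift was modest. A ratio of 2-fold or more was found for 1 of the 41 genes, against 0.872% of all genes. It was Dlgap2, with 163 expected counts and 3.42 TPM in replicate 1, against 318 expected counts and 7.85 TPM in replicate 2. Its level was 2.30-fold higher in replicate 2, and the ratio of its share of all counts, replicate 1 over replicate 2, was 0.425 with an exact binomial interval (95%, counting error only) of 0.349 to 0.515. The deposited intervals lay apart for 30 of the 41 genes (73.2%), all higher in replicate 2, against 37.4% of all genes higher in replicate 2 and 8.47% higher in replicate 1. At 1.5-fold, 11 of the 41 (26.8%) would be counted, against 6.66% of all genes.

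Next to Dlgap2 and Il1rapl1, the widest differences were those of Cadm2, Nrxn3, Lrrtm3, Dlgap1 and Camk2b. Cadm2 had 10.9 TPM in replicate 1 and 20.3 TPM in replicate 2, a log2 ratio of −0.90. Nrxn3 was at −0.83, Lrrtm3, Dlgap1 and Camk2b at −0.80 each. Part of the differences of Nrxn3, Lrrtm3 and Dlgap1 lay on transcripts that are not protein-coding. Their protein-coding shares were 52%, 78.3% and 62.1% in replicate 1 and 40.4%, 69.4% and 55.5% in replicate 2. The share of Camk2b was 98.2% in replicate 1 and 97.7% in replicate 2, and that of Cadm2 was 100% in both. Over protein-coding transcripts alone these genes were still higher in replicate 2. At the other end Dlg4 was at 0.20, on 1056 expected counts in replicate 1 and 737 in replicate 2. By role, the median log2 ratio was −0.46 over the postsynaptic receptors, −0.36 over the excitatory scaffolds, −0.31 over the presynaptic receptors and −0.30 over the immunoglobulin adhesion proteins. All 4 kept their sign under the TMM and DESeq2 scalings, at −0.31, −0.22, −0.15 and −0.13. The median of the 3 cerebellins did not, with −0.32 in TPM and 0.06 under those scalings.

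Markers of cell types differed between the embryos as well. The 8 markers of postmitotic neurons summed to 3231 TPM in replicate 1 and 3871 TPM in replicate 2, and 8 of 8 were higher in replicate 2. The 10 markers of dividing progenitors summed to 1548 TPM in replicate 1 and 1294 TPM in replicate 2, and 9 of 10 were higher in replicate 1. Red blood cell markers summed to 11278 TPM in replicate 1 and 13961 TPM in replicate 2, all 5 higher in replicate 2, and oligodendrocyte lineage markers to 34.5 TPM in replicate 1 and 53.0 TPM in replicate 2, also 5 of 5. The 4 astrocyte markers summed to 14.6 TPM in replicate 1 and 22.4 TPM in replicate 2, with Gfap, Aqp4 and S100b under 1 TPM in both. Microglia and endothelium markers were closer, with sums of 101.4 and 119 TPM in replicate 1 and of 109 and 131 TPM in replicate 2. Under the TMM and DESeq2 scalings 7 of 8 neuronal markers were higher in replicate 2 and 10 of 10 progenitor markers in replicate 1, while the medians of the microglia and endothelium markers turned to the side of replicate 1. The part of these differences in the shift of the synaptic genes was not tested. In such tissue RNA, fewer cells of a type and less RNA per cell cannot be told apart, and embryo, collection day and library cannot be told apart either.

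**Figure D5:**
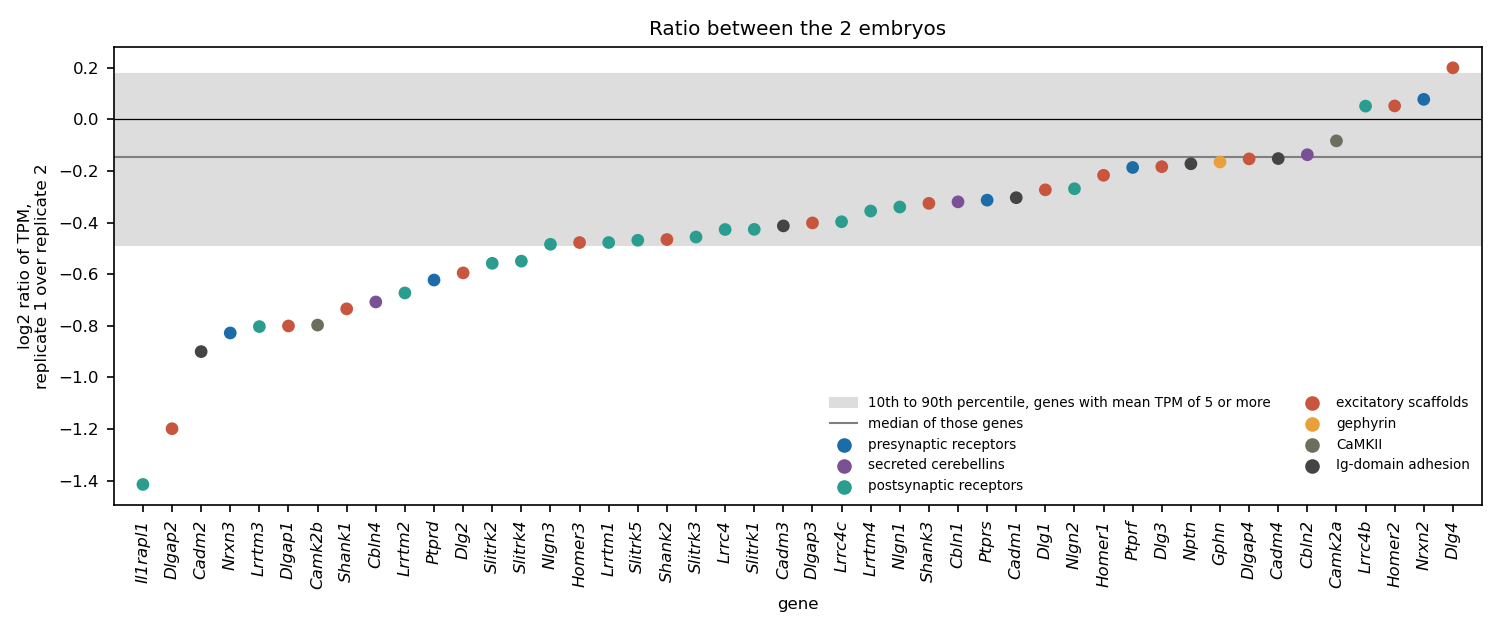
Log2 ratio of TPM, replicate 1 over replicate 2, for each of the 46 genes in order of size, coloured by role; the grey band spans the 10th to 90th percentile, −0.49 to 0.18, and the grey line the median, −0.14, of all genes at a mean of 5 TPM or above. Of the 46 genes, 42 lie below 0, and Il1rapl1 and Dlgap2 lie lowest.

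The genes of the set also differed from others in their loci. Their median span was 71.8 kb, against 17.8 kb for nuclear protein-coding genes, and 20 of the 46 (43.5%) spanned 100 kb or more, against 11.5%. Ptprd (chr4:75941238-78211961), Dlg2 (chr7:90476672-92449247) and Nrxn3 (chr12:88722876-90334935) were the longest, in GRCm38. Across the 46 genes, Spearman's rho was 0.09 between span and mean TPM and −0.38 between span and protein-coding share, as a description of genes that are not independent. Of the set, 5 genes lie on the X chromosome, namely Nlgn3, Slitrk2, Slitrk4, Il1rapl1 and Dlg3. The genes Lrrtm1, Lrrtm2 and Lrrtm3 each lie inside an alpha-catenin gene on the opposite strand (Ctnna2, Ctnna1 and Ctnna3), and Lrrc4 lies inside Snd1.

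Other genes of the same pathways, taken from a list of 44 that leaves out the set itself, were present as well. Of these, 41 reached 1 TPM in each library. The 8 most abundant were Bsg, Lin7c, Apba2, Camk2g, Clstn3, Clstn1, Cask and Camk2d. Bsg, which encodes basigin, a relative of neuroplastin also made by blood vessels, had 603 TPM in replicate 1 and 672 TPM in replicate 2. Lin7c and Cask, which form an adaptor complex behind neurexins, had 147 and 27.1 TPM in replicate 1 and 176 and 32.1 TPM in replicate 2. Apba2, which encodes Mint2, had 88.5 TPM in replicate 1 and 119 TPM in replicate 2. The calsyntenins Clstn3 and Clstn1, adhesion proteins of synapses and axons, had means of 35.1 ± 9.21 and 33.1 ± 4.31 TPM. The further CaMKII subunits Camk2g and Camk2d had means of 36.9 ± 6.746 and 25.1 ± 1.499 TPM, between those of Camk2b and Camk2a.

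The lowest genes of that list were C1ql2, a secreted C1q-like ligand, and Cbln3, the cerebellin that acts with Cbln1 in cerebellar granule cells. C1ql2 had 0.44 TPM in replicate 1 and 0.93 TPM in replicate 2, and Cbln3 had 0.22 TPM in replicate 1, on 12 expected counts, and 0.17 TPM in replicate 2, on 14. Of the 44 genes, 41 were higher in replicate 2 and 3 in replicate 1, with a median log2 ratio, replicate 1 over replicate 2, of −0.44, and the same numbers held under the TMM and DESeq2 scalings, at −0.28. Of the 32 with a mean TPM of 5 or more, 26 (81.2%) had deposited intervals apart, all higher in replicate 2, against 37.4% of all genes, and 1 (3.12%) reached 2-fold, against 0.872%. That gene, Nrgn, which encodes the calmodulin-binding protein neurogranin, was named after its values were seen and had 6.15 TPM in replicate 1 and 12.6 TPM in replicate 2.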

How the data were processed

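RNA of E14.5 mouse forebrain was measured in 2 libraries. Per the labels, each was made from 10 ng of RNA over 200 nt with spike-ins added, and the linked general protocol is named after Smart-seq although the molecule is called total RNA. The deposited tables hold expected counts, TPM and FPKM per gene and transcript, and for each transcript its percent of the gene TPM, per the file headers. Per the notes deposited with the files, the assembly was mm10 (GRCm38) and the annotation GENCODE M4. The aligner, the quantifier and the use of strand are not given in the sources used here.

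Names, types, coding lengths and coordinates came from GENCODE M21 on GRCm38 by ID without version, which matched 42462 of 43346 genes and 304 of 305 transcripts of the 46 genes. Of these 304, 272 had the same length in both releases. The long Homer1 transcript shown differed in length, so its ends may not be those counted. Sequences were cut from the GENCODE transcripts on GRCm38.

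Expected counts were used unrounded for TMM (edgeR 4.0.16) and rounded for the DESeq2 1.42.0 size factors, in R 4.3.3. No count test was run. Other steps used Python 3.11.15, pandas 2.3.3, numpy 2.4.6 and scipy 1.17.1. Ratios carry no pseudocount unless stated. TPM lay outside its own deposited interval for some genes, Ptprs among them (178 TPM beside 172 to 176 in replicate 1, 221 TPM beside 211 to 217 in replicate 2).

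All 46 genes could be named. Of the pathway list, the 8 highest and those under 1 TPM in both libraries were named, and transcripts with 10% or more of a gene's TPM in both. A further marker of the tissue list is not reported here. The set, its lists and the measures were chosen with earlier results of these data known. The binomial intervals cover counting error only, and what the deposited intervals cover is not given in the sources used here. On counts simulated with counting noise alone for 10971 genes of the comparison between the embryos, the 2-fold rule called 50 of 50 genes raised 4-fold, the same number raised 2.5-fold, 45 of 50 set to 0.4-fold, 42 of 50 set to 0.25-fold, and 1 of 10771 unchanged genes.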

Additional observations from a re-analysis of the deposited data

How the results depend on the processing

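The count of detected genes was 39 to 46 under 7 alternatives. That of other pathway genes was 28 to 44 under 6, with 41 reported. Separated pairs numbered 19 to 23 under 5, beside 18 as reported, but some of these were apart in the reverse order. Such were Ptprd over Ptprf, Lrrtm3 over Lrrtm2, Slitrk5 over Slitrk2, Shank3 over Shank2 and Cadm4 over Cadm2 among the 23 without division by length. Ptprd over Ptprf was also reversed among the 21 over protein-coding transcripts. With a single library the counts were 21 and 22, where agreement in a second one was not required. The median level of 14.3 TPM became 17.3 TPM when rescaled to nuclear protein-coding genes and 8.90 in FPKM, a unit on another scale, and 12.8 to 16.3 TPM with a single library. The count of genes differing 2-fold, 1 as reported, was 2 with a mean TPM of 1 or more or with no filter, where Il1rapl1 joined Dlgap2, 11 (26.8%, against 6.66% of all genes) at 1.5-fold, and 0 over protein-coding transcripts, where Dlgap2, with 0.72 TPM in replicate 1 and 2.29 TPM in replicate 2, still differed by more than 2-fold but fell under the required mean of 5 TPM. It stayed at 1 under the other 5 alternatives. The median coding share was 99.4% to 100% with a single library. The number of genes higher in replicate 2 was 36 to 42 under 6 alternatives chosen after seeing the data, as was the sum over transcripts with at least 50% of the longest coding length, which gave a median level of 12.2 TPM and 44 genes detected. The cause of these changes was not tested. No paired analysis was possible because the design has 1 group. Depth limits Il1rapl1, Dlgap2 and Shank3 most, at 133 to 318 expected counts, and a count of 0 allows 0.131 TPM in replicate 1 and 0.170 TPM in replicate 2 for an effective length of 1 kb.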
